A study of Mus musculus with 47 samples.

Results

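Hypothalamic gene expression was compared between 9 Lep ob/ob mice euthanized 5 days after a single intracerebroventricular (icv) injection of FGF1 and 7 vehicle-injected mice of the same day that the library labels call diabetic. The 16 libraries were chosen by their labels alone and are part of a series of 47. Fibroblast growth factor 1 (FGF1) is a secreted protein that signals through FGF receptor tyrosine kinases, and a single icv dose is known for long-lasting lowering of blood glucose in diabetic rodents. Each library came from 1 male ob/ob mouse aged 11 weeks. The treatment labels name FGF1 alone, while the source name shared by all 47 libraries also mentions FGF19, so the agent is taken from the treatment labels. FGF1-injected mice received 3 µg, and the labels put vehicle-injected mice on the food intake of the FGF1 group. A further 7 vehicle libraries of Day 5 carry the label Non-Diabetic and are given only beside the main values. They enter the test of what the choice of control changed.

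The meaning of the diabetic label could not be checked in the counts. The methods of the study leave out mice without sustained hyperglycemia and count 7 vehicle-injected mice on Day 5, whereas the labels hold 14, and a deposited sample table gives all 14 the same group code. The groups are therefore named here by their labels. All Day 5 libraries share 1 preparation code, so the comparison lies within 1 preparation. Every FGF1 library has a higher number in its title than every vehicle library, so that numbering and treatment cannot be told apart. The mice lack leptin from birth, and the tissue was a punch of the hypothalamus, without sorting of cells. In such bulk tissue, fewer cells of a type and less RNA per cell cannot be told apart.

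The hypothalamus senses hormones and nutrients and sets feeding and glucose output. Agrp neurons of the arcuate nucleus release AgRP and NPY, which promote feeding, and are restrained by leptin in normal mice. Around them, astrocytes and tanycytes buffer ions and transmitters and carry signals from blood and ventricle, oligodendrocytes wrap axons in myelin, and microglia, the resident phagocytes, clear debris and prune synapses with the help of complement.

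Totals ran from 7695346 to 30009258 counts in the FGF1 group and from 7579695 to 12451642 counts in the diabetic-labelled vehicle group. FGF1 replicates 8 and 9, with 30009258 and 27922117 counts, were the deepest. The median SD of a gene on the log2 scale was 0.107 among FGF1 libraries and 0.116 among diabetic-labelled vehicle libraries. In a principal component analysis of the 16 libraries the first component held 29.2% of the variance and placed all FGF1 libraries on the positive side and all vehicle libraries on the negative side. Some libraries stood apart. Diabetic-labelled vehicle replicate 1 was high in myelin genes, and FGF1 replicate 4 was close to vehicle in genes induced by glucocorticoids. Non-diabetic-labelled vehicle replicate 2 was far above its group in microglial, interferon and complement genes. Counts that these libraries moved most are given with and without them.

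FGF1 changed 406 of the 14221 genes tested, 2.85%, by the thresholds used throughout: an adjusted p under 0.05 (edgeR quasi-likelihood test, Benjamini-Hochberg) and an absolute log2 fold change above 0.5. Such genes are called DEGs. Most were higher with FGF1, 335 genes or 2.36%, and 71 or 0.499% were lower. Without the fold threshold 1310 genes (9.21%) passed, and the median log2 fold change of all genes was -0.0071. Higher genes made up 82.5% of the DEGs, or 65.8% of 415 after quantile normalization with limma. The normalized counts, given as CPM, counts relative to the TMM-scaled library size,, did not overlap between the groups for 865 genes (6.08%), with FGF1 above for 516 (3.63%) and below for 349 (2.45%).

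The 12 largest increases among DEGs with non-overlapping groups included Bmp4, Gpr17, Mki67 and A2m. They were selected for their size and separation, so their values are a description. Bmp4, a secreted growth factor of newly formed oligodendrocytes, ran from 4.97 to 9.53 CPM (median 6.01) with FGF1 and from 0.871 to 3.36 CPM (median 1.74) in diabetic-labelled vehicle, a log2 fold change of 1.91 ± 0.24 (SE). Gpr17, a receptor of oligodendrocyte precursors about to mature, ran from 116 to 176 CPM (median 147) against 37.1 to 49.3 (median 38.1). Mki67, a marker of dividing cells, ran from 3.76 to 10.9 CPM (median 5.54) against 0.610 to 2.48 (median 1.87), while the list of 18 cell cycle genes that holds it had 2 DEGs and a median log2 fold change of -0.03. In each of these genes even the lowest FGF1 library exceeded the highest vehicle library. A2m, a broad inhibitor of proteases, ran from 48.4 to 73.0 CPM (median 53.7) against 13.7 to 24.0 (median 17.5), and Enpp6, Slc38a5, Timp1, Lyz2, Bfsp2, Ccl9, Fcrls and Traf1 completed the 12 with log2 fold changes from 1.33 to 1.79.

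The largest decreases by the same rule included Kirrel2, Slc13a5 and Hsd11b1. Kirrel2, a cell adhesion protein, ran from 0.977 to 2.55 CPM (median 1.73) with FGF1 and from 5.18 to 6.81 CPM (median 6.02) in diabetic-labelled vehicle, a log2 fold change of -1.77 ± 0.21 (SE). Slc13a5, a citrate transporter, ran from 3.51 to 7.44 CPM (median 6.0) against 12.5 to 15.0 (median 13.5). Hsd11b1, the enzyme that regenerates active glucocorticoid inside cells, ran from 4.52 to 7.59 CPM (median 5.64) against 9.34 to 17.5 (median 13.4). All 9 FGF1 libraries lay below all 7 vehicle libraries for these genes. Gipr, the receptor of the gut hormone GIP, was at 0.752 to 2.33 CPM (median 1.63) against 2.80 to 4.51 (median 3.29), and the transcript 2900052N01Rik at 20.4 to 29.0 CPM (median 23.6) against 58.1 to 74.9 (median 62.8). The others were Ovgp1, Rbm3, Pla2g3, Cirbp, Slc2a4, Itih3 and Gli1, with log2 fold changes from -0.89 to -0.75. Exons of Bmp4, Gpr17, Bfsp2, Slc13a5, Ovgp1, Rbm3, Pla2g3 and Gli1 overlap those of a neighbor in the annotation, so their counts may include reads of that neighbor.

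**Figure D1:**
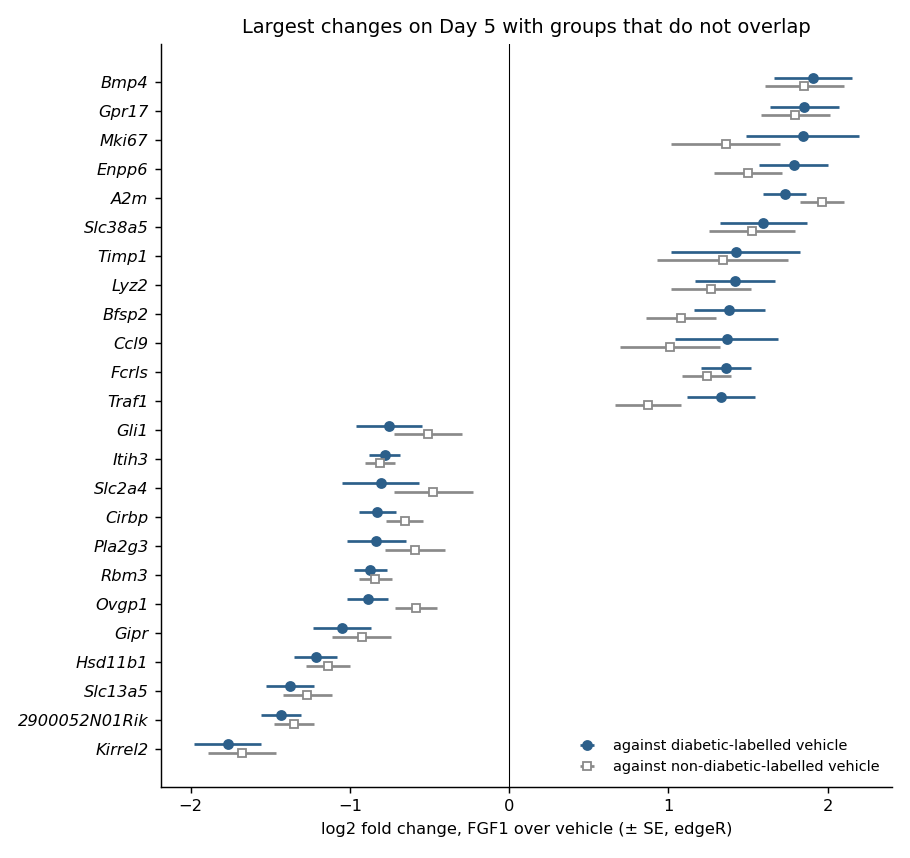
Log2 fold changes (x axis, with SE from edgeR) of the 12 higher and 12 lower DEGs with the largest changes among those whose 9 FGF1 libraries all lie on one side of the 7 diabetic-labelled vehicle libraries. Filled circles are relative to diabetic-labelled vehicle and open squares to non-diabetic-labelled vehicle, which shares the FGF1 libraries. Bmp4 (1.91) and Kirrel2 (-1.77) mark the ends, and the symbols of a gene lie on the same side of 0 throughout.

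Across 42 gene lists written by hand, higher DEGs were found in several lists of glial genes. All DEGs in the lists of microglia, complement, oligodendrocytes and reactive astrocytes were higher. DEGs were absent from the lists of pan-neuronal genes (16 members, 2 at an unadjusted p under 0.05), transmitter synthesis (16, with 1) and melanocortin and Agrp neuron genes (32, with 6) in edgeR, which for lists of this length is close to the 2.85% of all genes. Over all genes 2.36% were higher DEGs, 0.499% were lower DEGs and 21.8% had an unadjusted p under 0.05.

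**Figure D2:**
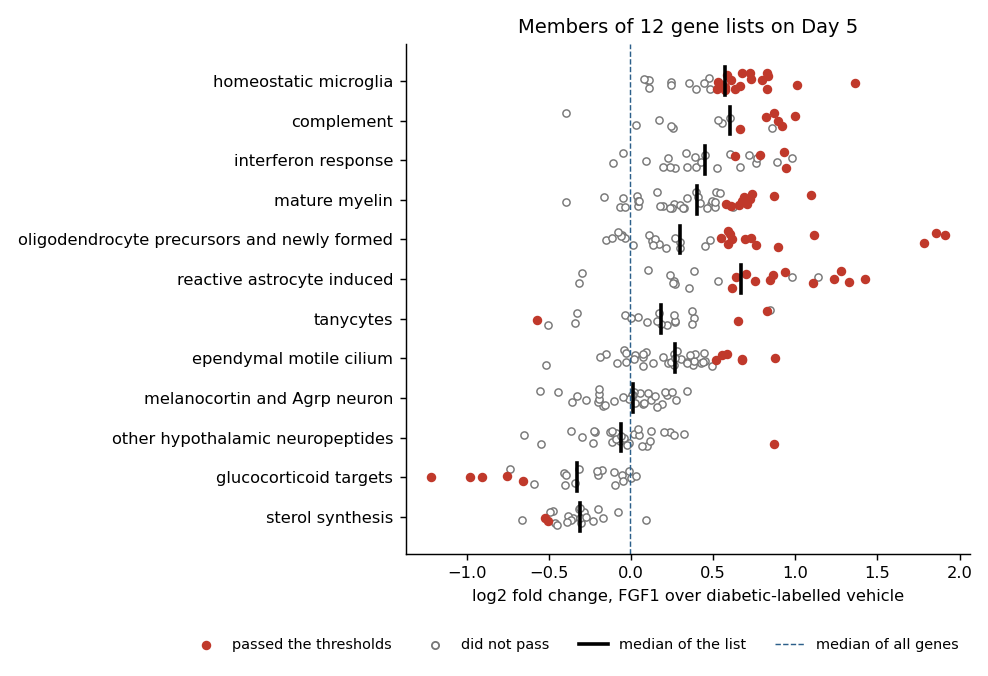
Log2 fold changes of FGF1 over diabetic-labelled vehicle (x axis) for the members of 12 gene lists. Each point is a gene, filled where it passed both thresholds, the black bar is the median of the list and the dashed line the median of all genes. The medians of the microglia (0.57), complement (0.60) and reactive astrocyte (0.67) lists lie to the right, and those of glucocorticoid targets (-0.33) and sterol synthesis (-0.31) to the left.

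Homeostatic microglia genes were higher with FGF1 almost throughout. All 30 members of the list were in the table, the log2 fold change was above 0 for all of them, 18 were DEGs and 0 were lower DEGs, and the median was 0.57. The DEGs made up 60.0% of the list, beside 2.85% of all genes. The groups did not overlap for 13 members, where they did not overlap for 6.08% of all genes. The summed level of the list ran from 595 to 727 CPM (median 672) with FGF1 and from 439.5 to 487 CPM (median 467) in diabetic-labelled vehicle, and every FGF1 library lay above every vehicle library.

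Fcrls, an Fc receptor-like protein of microglia, showed the largest change of the list. Fcrls ran from 12.2 to 18.4 CPM (median 13.9) against 3.82 to 7.36 (median 5.84), a log2 fold change of 1.36 ± 0.16 (SE) with an adjusted p of 2.1e-08. Olfml3, a secreted protein of microglia, ran from 21.6 to 29.3 CPM (median 26.7) against 9.68 to 17.7 (median 13.1), with 1.01 ± 0.12 and an adjusted p of 4.94e-08. The groups did not overlap for either gene. Csf1r, the receptor that keeps microglia alive, ran from 91.2 to 116 CPM (median 103) against 66.8 to 73.6 (median 70.3), with a log2 fold change of 0.58 ± 0.09 and an adjusted p of 1.37e-05. Every FGF1 library again lay above every diabetic-labelled vehicle library. Selplg, a ligand of selectins, rose by 0.83 ± 0.15 (adjusted p = 0.000179) and Ctss, the lysosomal protease cathepsin S, by 0.68 ± 0.13 (adjusted p = 0.000184).

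Not all defining markers of microglia moved. P2ry12, the ADP receptor that guides microglial processes, was added after its values were seen. It ran from 30.7 to 39.2 CPM (median 36.1) with FGF1 and from 26.7 to 35.3 CPM (median 28.4) in vehicle, with a log2 fold change of 0.24 and an adjusted p of 0.233. The groups overlapped for P2ry12. Others that did not become DEGs included Gpr34, P2ry13, Rgs10, Sall1, Siglech, Inpp5d, Slc2a5, Trem2, Fcgr3 and Itgam, with log2 fold changes between 0.08 and 0.57.

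Other phagocyte genes were read from shorter lists. Of 26 listed genes of activated phagocytes 16 were in the table, with a median of 0.43. Among them 3 rose (18.8%, beside 2.36% of all genes) and none fell. Lyz2, the lysozyme of macrophages, ran from 14.1 to 42.0 CPM (median 24.9) against 6.0 to 12.8 (median 10.8). Cd9, a tetraspanin found on activated microglia and on other glia, ran from 30.8 to 41.5 CPM (median 35.4) against 19.1 to 25.4 (median 20.6), with a log2 fold change of 0.71 ± 0.08 and an adjusted p of 1.11e-08. Neither gene had overlapping groups. Cd14, a co-receptor for bacterial products, was the last of the 3, with a log2 fold change of 0.66 and an adjusted p of 0.0232. Of 8 genes of border macrophages, which line vessels and meninges, 4 were in the table and Mrc1, the mannose receptor, rose by 0.85 ± 0.26 on the log2 scale (adjusted p = 0.0294). The calls of Cd14 and Mrc1 were lost in 6 and 7 of 33 alternatives.

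The complement genes that rose were of the classical pathway and of regulators. Of 19 listed genes 15 were in the table, and the median was 0.60. Among them 6 were DEGs (40.0%, beside 2.85% of all genes), all higher. C1qb, a chain of C1q, which starts the classical pathway and tags synapses, ran from 33.0 to 46.1 CPM (median 38.2) against 18.4 to 22.8 (median 20.6), a log2 fold change of 0.92 ± 0.15 with an adjusted p of 2.12e-05. C1qa rose by 0.82 ± 0.17 (adjusted p = 0.00065) and C1qc by 0.67 ± 0.16 (adjusted p = 0.0033). C4b, the next component of the cascade, ran from 143 to 184 CPM (median 156) against 77.2 to 101 (median 82.6), with 0.87 ± 0.19 and an adjusted p of 0.00172. The FGF1 libraries lay above all diabetic-labelled vehicle libraries for these 4 genes. Clu, a secreted chaperone and complement inhibitor made by astrocytes, ran from 989 to 1111 CPM (median 1060) against 546 to 587 (median 576).

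Few interferon response genes passed the test, and all that passed were higher. Of 28 listed genes 25 were in the table, 4 were higher DEGs, none was lower, and the median was 0.45. Trim30a, an interferon-induced ubiquitin ligase, ran from 6.21 to 10.1 CPM (median 8.05) against 2.87 to 5.33 (median 4.05), with a log2 fold change of 0.95 ± 0.23 and an adjusted p of 0.00385. Ifitm3, a membrane protein that blocks virus entry, ran from 6.41 to 10.8 CPM (median 9.27) against 3.66 to 6.20 (median 4.28), with 0.93 ± 0.24 and an adjusted p of 0.00804. Both pairs of groups were apart. Parp14 and Ifi27 were the other DEGs, with log2 fold changes of 0.79 and 0.63. The number of DEGs in this list varied between fits: it was 12 in a fit of only the 16 libraries, 9 in a fit of the 23 libraries of Day 5, 11 with sample weights in limma, and 7 without non-diabetic-labelled vehicle replicate 2. With a minimum of 10 counts in every library 13 members were tested and 2 were DEGs. Of 20 listed genes of MHC class I presentation 19 were in the table and B2m, the light chain of MHC class I, was the DEG, at 70.7 to 103 CPM (median 76.5) against 51.6 to 63.0 (median 55.9), with a log2 fold change of 0.51 ± 0.16 and an adjusted p of 0.0378 that rose above 0.05 when single libraries such as FGF1 replicate 6 were left out (0.0797).

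Promoter sequences of the microglial, complement and interferon genes were searched for short motifs of the factors that are known to control such genes. The interferon-stimulated response element, searched on both strands as GAAA, any 2 bases and GAAA, is bound by interferon regulatory factors and STAT complexes, and the PU.1 motif, searched as GAGGAAGT on both strands, by the master factor of microglia, encoded by Spi1. The sequences cover 250 bases before and 50 after each start in RefSeq annotation of GRCm38.p6. The response element lay in 1131 of 32851 promoters (3.44%) and in 3.99% of genes with a promoter sequence, in 13 of the 19 interferon members with a promoter sequence, and in 2 of 21 such microglia members, Aif1 and Ctss. The PU.1 motif lay in 3.2% of all promoters and in 3.69% of genes, in 2 of 21 microglia members, Ctss and Inpp5d, and in 1 of 9 complement members, C1qc. A match is a run of letters and was not tested as a binding site. The 250 bases upstream of 3 DEGs are shown because they hold such a match, with the match in capitals and the strand of the gene used throughout. They lie at chr7:104465194-104465443 on the minus strand (Trim30a, response element), chr3:95526536-95526785 on the plus strand (Ctss, response element) and chr4:136892915-136893164 on the minus strand (C1qc, PU.1 motif).
Trim30a: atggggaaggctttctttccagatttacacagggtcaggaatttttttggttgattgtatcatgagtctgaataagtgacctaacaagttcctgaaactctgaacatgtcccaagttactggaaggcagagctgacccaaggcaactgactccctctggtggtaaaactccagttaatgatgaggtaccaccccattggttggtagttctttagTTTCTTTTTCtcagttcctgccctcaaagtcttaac
Ctss: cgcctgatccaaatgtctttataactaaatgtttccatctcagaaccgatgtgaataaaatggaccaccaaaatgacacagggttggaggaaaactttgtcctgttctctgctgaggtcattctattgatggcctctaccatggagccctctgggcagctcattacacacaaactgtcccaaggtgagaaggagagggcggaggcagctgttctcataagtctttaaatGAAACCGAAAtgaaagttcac
C1qc: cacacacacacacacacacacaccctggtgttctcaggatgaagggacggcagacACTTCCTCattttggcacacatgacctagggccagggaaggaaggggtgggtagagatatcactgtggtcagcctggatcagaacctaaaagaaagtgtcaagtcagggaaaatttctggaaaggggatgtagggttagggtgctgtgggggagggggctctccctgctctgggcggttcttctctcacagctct

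**Figure D3:**
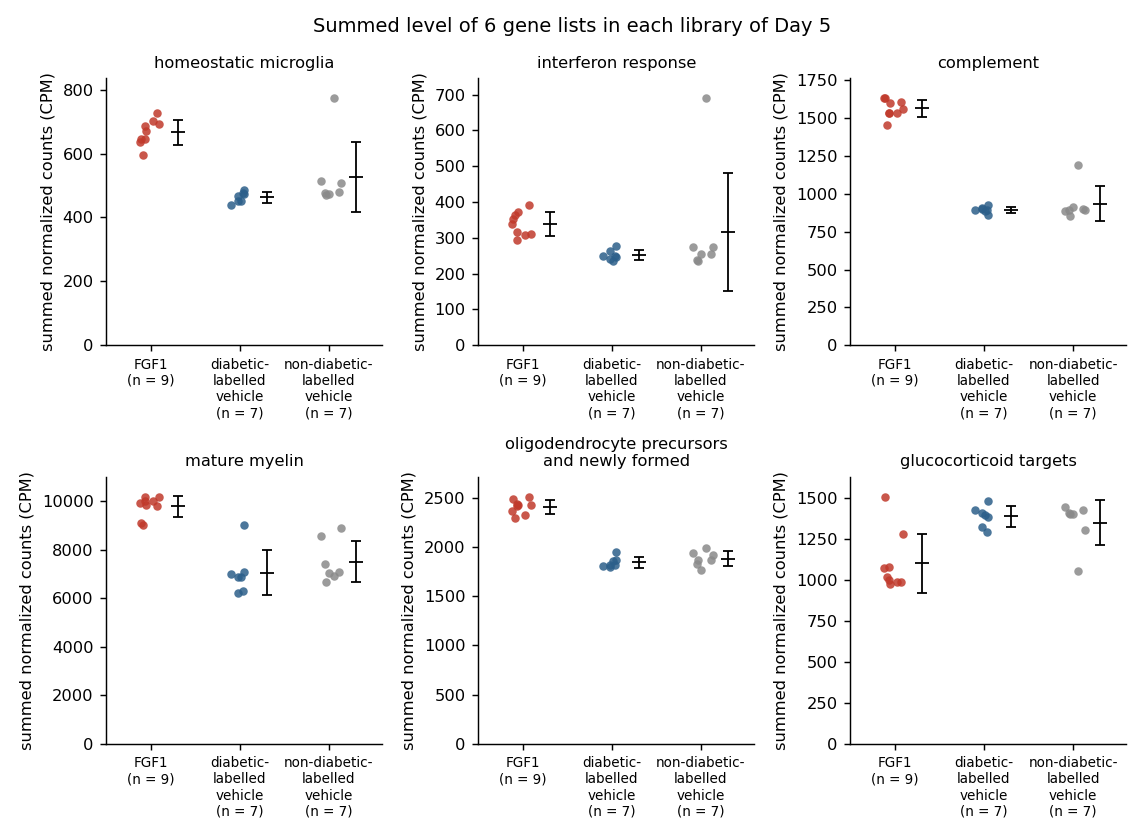
Summed normalized counts (y axis, CPM) of the members of 6 gene lists in each Day 5 library, with mean and SD beside the points of each group. FGF1 libraries lie above all diabetic-labelled vehicle libraries for microglia, interferon, complement and both oligodendrocyte lists, and non-diabetic-labelled vehicle replicate 2 lies far above its group for microglia (774), interferon (690) and complement (1194).

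Both oligodendrocyte lists held higher DEGs and no lower ones, and most of their members were not called. Of 32 listed genes of precursors and newly formed oligodendrocytes 31 were in the table, with a median of 0.30. Among them 13 rose (41.9%, beside 2.36% of all genes) and none fell. The summed level ran from 2299 to 2517 CPM (median 2432) against 1798 to 1953 (median 1819), with no overlap. Fyn, a kinase that drives myelination, ran from 130 to 157 CPM (median 146) against 91.5 to 98.0 (median 96.7), a log2 fold change of 0.59 ± 0.05 and an adjusted p of 4.75e-13. Bcas1, a marker of oligodendrocytes that are starting to myelinate, ran from 183 to 248 CPM (median 224) against 100 to 153 (median 112), with 0.89 ± 0.10 and an adjusted p of 2.03e-08. Enpp6, an enzyme of newly formed oligodendrocytes, ran from 27.5 to 46.5 CPM (median 38.5) against 6.98 to 17.1 (median 10.4). The groups were apart for all 3 genes. Pdgfra, the growth factor receptor of resting precursors, was at 82.1 to 105 CPM (median 97.6) against 84.2 to 93.8 (median 88.5), with a log2 fold change of 0.11 and an adjusted p of 0.429, and its groups overlapped.

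Of the 40 genes of mature myelin, all in the table, 10 rose (25.0%, beside 2.36% of all genes) and none fell. The median was 0.40. Cnp, an enzyme of myelin sheaths, ran from 566 to 639 CPM (median 622) against 355 to 463 (median 395), with 0.61 ± 0.09 and an adjusted p of 5.16e-06. Ugt8a, which makes the galactolipids of myelin, ran from 108 to 166 CPM (median 141) against 50.6 to 91.2 (median 63.2), with 1.09 ± 0.18 and an adjusted p of 1.62e-05. Every FGF1 library was above every diabetic-labelled vehicle library in these genes. Gsn, Cryab, Fa2h, Mal, Gal3st1 and Cldn11 rose as well, with log2 fold changes from 0.58 to 0.72. The structural genes Mbp and Mag were not called, with log2 fold changes of 0.20 and 0.17 and adjusted p-values of 0.402 and 0.531.

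Diabetic-labelled vehicle replicate 1 carried high myelin values. The summed level of the mature myelin list was 9014 CPM in that library and between 6233 and 7072 in the other 6, while FGF1 libraries ran from 9016 to 10190 CPM. Without that library 15 of the 40 genes rose, with a median of 0.47.

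Sterol synthesis genes were lower with FGF1 by small amounts. Of 25 listed genes 24 were in the table, the log2 fold change was below 0 for 23, and 16 had an adjusted p under 0.05, where 9.21% of all genes did, while 2 passed the fold threshold as well. The summed level ran from 1182 to 1417 CPM (median 1364) with FGF1 and from 1652 to 1777 CPM (median 1686) in diabetic-labelled vehicle, with no overlap. Insig1, which holds the SCAP-SREBP complex in the endoplasmic reticulum, ran from 88.8 to 119 CPM (median 108) against 134 to 170 (median 153), a log2 fold change of -0.51 ± 0.09 with an adjusted p of 4.55e-05. Idi1, an isomerase of the isoprenoid steps, ran from 10.2 to 14.7 CPM (median 12.4) against 16.9 to 20.6 (median 17.8), with -0.52 ± 0.12 and an adjusted p of 0.00352. Both lie close to the fold threshold, and without FGF1 replicate 4 neither passed it. Of 16 fatty acid synthesis genes none was a DEG, 7 had an unadjusted p under 0.05 in edgeR, beside 21.8% of all genes, and 5 an adjusted p under 0.05, beside 9.21%. Their median log2 fold change was -0.05, with 11 members below 0 and 5 above. Their summed level, in which abundant members weigh most, ran from 3370 to 4019 CPM (median 3804) against 4121 to 4507 (median 4193), without overlap.

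Astrocyte genes of the reactive state held higher DEGs and no lower ones. Of 31 listed genes 24 were in the table, and the median was 0.67. Among them 12 rose (50.0%, beside 2.36% of all genes), 12 were not called, and 2 had log2 fold changes below 0. After quantile normalization with limma 8 rose. Gfap, the intermediate filament of astrocytes, ran from 400 to 644 CPM (median 520) against 178 to 272 (median 220), with a log2 fold change of 1.28 ± 0.14 and an adjusted p of 1.25e-08. Serpina3n, a secreted protease inhibitor, ran from 91.4 to 136 CPM (median 109) against 39.2 to 48.5 (median 43.7), with 1.33 ± 0.12 and an adjusted p of 1.2e-11. No vehicle library reached the range of the FGF1 libraries for either. Osmr, the receptor of oncostatin M, rose by 0.76 ± 0.16 (adjusted p = 0.0011) and Il6st, the signal chain that it shares with other cytokine receptors, by 0.53 ± 0.07 (adjusted p = 7.54e-07). In the list of 26 homeostatic astrocyte genes 2 rose (7.69%, beside 2.36% of all genes). Aqp4, the water channel of astrocyte endfeet, ran from 237 to 358 CPM (median 275) against 118 to 185 (median 131), and Id3, a target of BMP signaling, from 39.4 to 51.5 CPM (median 46.9) against 19.4 to 25.4 (median 23.3). Glul, glutamine synthetase of astrocytes, was at a log2 fold change of -0.01.

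Tanycyte and cilium genes of the ventricular lining held DEGs, 14.3% and 15.4% of the members in the table, beside 2.85% of all genes. Of 23 tanycyte genes 21 were in the table, with 2 higher and 1 lower, and the summed level ran from 854.6 to 947 CPM (median 912.5) against 764 to 828 (median 792) without overlap. Gpr50, an orphan receptor of tanycytes, ran from 9.91 to 16.6 CPM (median 13.4) against 6.68 to 8.72 (median 7.04), with a log2 fold change of 0.83 ± 0.14 and an adjusted p of 6.17e-05. Cd24a, a surface glycoprotein, rose by 0.65 ± 0.12 (adjusted p = 0.000128). Dio2, the enzyme by which tanycytes activate thyroid hormone, ran from 12.7 to 20.1 CPM (median 15.2) against 18.5 to 29.2 (median 23.2), with -0.57 ± 0.19 and an adjusted p of 0.0444. Its groups overlapped, and the call of Dio2 was lost in 15 of 34 alternatives. Of 46 genes of the motile cilium of ependymal cells 39 were in the table and 6 rose, with a summed level of 450.5 to 581 CPM (median 480.4) against 318.5 to 447 (median 405.0) without overlap, among them the dynein heavy chains Dnah6, Dnah5 and Dnah11 with log2 fold changes from 0.52 to 0.67. Dynlrb2, a dynein light chain, lost its call in 21 of 33 alternatives. The count of 6 varied with single libraries: it was 3 without FGF1 replicate 8, 3 without diabetic-labelled vehicle replicate 1 and 2 without the 2 deepest FGF1 libraries.

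Agrp, Npy and Itga7 were lower with FGF1 in this comparison, and none of them was a DEG in the main fit of all 47 libraries. Agrp encodes the melanocortin antagonist AgRP and lies at chr8:105566698-105637393 in GENCODE annotation of GRCm38, a span that overlaps exons of Ctcf and Gm5914, so its count may hold reads of these. It ran from 8.08 to 15.6 CPM (median 10.2) in the FGF1 group and from 10.4 to 21.6 CPM (median 16.6) in diabetic-labelled vehicle. The groups overlapped, and 6 of 9 FGF1 libraries lay below all 7 vehicle libraries. The log2 fold change was -0.55 ± 0.30 (SE) with an adjusted p of 0.287, and the exact permutation test of 9 against 7 libraries gave a two-sided p of 0.0102, unadjusted. In the 7 non-diabetic-labelled vehicle libraries Agrp ran from 5.05 to 17.4 CPM (median 12.98), and the log2 fold change against them was -0.12 with an adjusted p of 0.928. The call of Agrp varied between fits: the adjusted p was 0.00839 in a fit of only the 16 libraries and 0.0315 in a fit of the 23 libraries of Day 5, and lay between 0.0762 and 0.451 in the other alternatives.

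Npy, at chr6:49822710-49829507, ran from 26.3 to 45.1 CPM (median 35.1) with FGF1 and from 39.1 to 64.9 CPM (median 47.1) in diabetic-labelled vehicle. As for Agrp, 6 of 9 FGF1 libraries were below all vehicle libraries and the groups overlapped. The log2 fold change was -0.45 ± 0.21 with an adjusted p of 0.209, and the exact permutation test gave p = 0.00621. The non-diabetic-labelled vehicle libraries, from 20.4 to 60.9 CPM (median 35.4), spanned the range of nearly all others, and the log2 fold change against them was -0.17 (adjusted p = 0.793). The adjusted p of Npy was 0.00644 and 0.0369 in fits of only 16 and of 23 libraries and 0.0197 with sample weights, with a change that stayed under the fold threshold in each. Non-diabetic-labelled vehicle replicate 2, which stood apart in microglial and interferon genes, held the lowest value of its group for Agrp and Npy, and without it the log2 fold changes against that group were -0.25 and -0.29.

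Itga7, at chr10:128933818-128958282, encodes an integrin chain that binds laminin and overlaps Mettl7b on the other strand. It ran from 10.9 to 20.6 CPM (median 19.1) with FGF1, from 19.4 to 26.5 CPM (median 23.7) in diabetic-labelled vehicle and from 16.6 to 22.4 CPM (median 19.3) in non-diabetic-labelled vehicle. FGF1 replicate 4 held the lowest value, the other 8 FGF1 libraries ran from 17.6 to 20.6 CPM, and 5 of 9 FGF1 libraries lay below all diabetic-labelled vehicle libraries. The log2 fold change was -0.38 ± 0.13 with an adjusted p of 0.0494, under the fold threshold, and -0.31 with an adjusted p of 0.114 without FGF1 replicate 4. The adjusted p also rose above 0.05 without other single FGF1 libraries, such as replicate 1 (0.064). Over all 34 alternatives it ran from 0.000923 to 0.17, and Itga7 was a DEG in none of them. The exact permutation test gave p = 0.000874. Against the non-diabetic-labelled group the log2 fold change was -0.09 (adjusted p = 0.833).

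**Figure D4:**
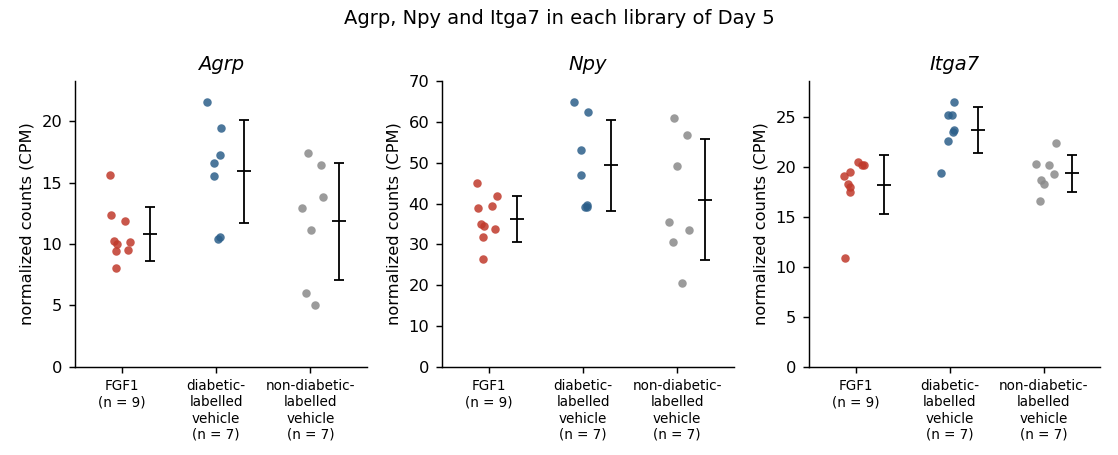
Normalized counts (y axis, CPM) of Agrp, Npy and Itga7 in each Day 5 library, with mean and SD beside the points of each group. The diabetic-labelled vehicle group has the highest median in each panel (16.6, 47.1 and 23.7 CPM), and the 3 groups overlap in each panel.

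Among other genes of the feeding circuit the share of DEGs was close to the 2.85% of all genes, at 3.33% of the hormone receptors and 3.23% of the other neuropeptides. Pomc, the precursor of the melanocortin peptides that oppose AgRP, was added after its values were seen and ran from 5.89 to 17.8 CPM (median 7.89) against 5.03 to 14.4 (median 6.99), with a log2 fold change of 0.34 and an adjusted p of 0.709. Its groups overlapped widely. Cpe, the carboxypeptidase that trims neuropeptides, was the member of the 32 melanocortin and Agrp neuron genes with an adjusted p under 0.05, at a log2 fold change of 0.21 ± 0.06 (adjusted p = 0.0208). Npy1r, a receptor of NPY, had -0.27 ± 0.09 with an adjusted p of 0.0511. Of 30 hormone receptors Gipr alone was a DEG, with a log2 fold change of -1.05 ± 0.18 and an adjusted p of 6.56e-05. Of 31 other neuropeptide genes in the table Nnat, an imprinted protein involved in peptide processing, rose from a median of 508 CPM (423 to 539) in vehicle to 868 CPM (749 to 986), with no overlap.

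Marker genes of neighboring regions gave no DEG in edgeR. The lists were those of forebrain excitatory neurons (12 genes), striatum (11), thalamus (14), pituitary (3) and choroid plexus (8), and none of their members had an unadjusted p under 0.05. The summed striatal level ran from 238 to 458 CPM with FGF1 and from 230 to 515 CPM in diabetic-labelled vehicle, so the groups overlapped widely, and the median log2 fold change of its members was -0.37.

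Genes that glucocorticoids induce mostly had log2 fold changes below 0 (20 members), and 17 were not DEGs. Of 24 listed genes 22 were in the table, with a median of -0.33. Of these 5 fell (22.7%, beside 0.499% of all genes) and none rose. The 5 include Hsd11b1, which regenerates active glucocorticoid. Arrdc2, an arrestin-domain protein, ran from 10.4 to 25.1 CPM (median 13.4) against 20.4 to 33.7 (median 29.3), with a log2 fold change of -0.98 ± 0.20 and an adjusted p of 0.000544. Plin4, a coat protein of lipid droplets, ran from 17.3 to 74.6 CPM (median 27.2) against 63.6 to 72.8 (median 68.6), with -0.91 ± 0.23 and an adjusted p of 0.00758. For both genes 8 of 9 FGF1 libraries lay below all vehicle libraries and FGF1 replicate 4 was the exception. Sgk1, a kinase that regulates ion channels, fell by 0.76 on the log2 scale (adjusted p = 0.0248, and 0.132 without the 2 deepest FGF1 libraries) and Per1, which also belongs to the clock, by 0.66 (adjusted p = 0.0075). The summed level of the list was 1507 CPM in FGF1 replicate 4 and 977 to 1279 CPM in the other 8 FGF1 libraries, against 1292 to 1483 CPM in diabetic-labelled vehicle. Without that library 7 members fell and the median was -0.39. Fkbp5, a classical target, was not called (log2 fold change -0.32, adjusted p = 0.158).

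In the list of 20 clock genes 2 fell, Per1 and Cry1 (10.0%, beside 0.499% of all genes), and the median was -0.14. Cry1, a repressor of the clock, ran from 20.4 to 25.2 CPM (median 22.98) against 26.5 to 47.1 (median 36.6), with -0.65 ± 0.09 and an adjusted p of 9.53e-07. Rbm3, an RNA-binding protein induced by cold, ran from 45.4 to 83.5 CPM (median 78.9) against 115 to 133 (median 128), and Cirbp, its relative, from 54.5 to 101 CPM (median 83.8) against 117 to 158 (median 149). Each of these genes had all FGF1 libraries below all vehicle libraries. Slc2a4, the insulin-responsive glucose transporter, ran from 3.00 to 7.27 CPM (median 6.09) against 8.13 to 12.2 (median 9.15), with -0.81 ± 0.24 and an adjusted p of 0.0249, which was 0.0897 without the 2 deepest FGF1 libraries. Body temperature and time of day at euthanasia were not analysed here.

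Beside 2.85% of all genes, DEGs made up 12.5% of the integrins and matrix receptors, 6.98% of the collagens and laminins, 16.7% of the perineuronal net genes and 10.7% of the endothelial genes. Of 36 integrins and matrix receptors 32 were in the table and 4 rose. Itgb5, a vitronectin-binding chain, ran from 57.6 to 69.8 CPM (median 62.0) against 36.3 to 45.2 (median 41.3), with a log2 fold change of 0.60 ± 0.10 and an adjusted p of 1.84e-05. Cd44, the receptor of hyaluronan, ran from 11.4 to 14.4 CPM (median 12.4) against 6.35 to 9.71 (median 8.20), with 0.64 ± 0.14 and an adjusted p of 0.00112. The groups were apart for both, and Itgb2 and Itgb7 were the leukocyte chains among the 4. Of 43 collagens and laminins Col4a5, Col4a6 and Nid1, all of basement membranes, rose by 0.57 to 0.64 on the log2 scale. Over the alternatives this list had 1 to 7 higher DEGs. Of 18 genes of perineuronal nets in the table Chst3, a chondroitin sulfotransferase, rose by 0.91 ± 0.12 (adjusted p = 1.99e-07), beside Tnr and Adamts4. Of 28 endothelial genes Ly6a and Vwf rose and Mfsd2a, the lipid transporter of the blood-brain barrier, fell from a median of 41.3 CPM (37.6 to 43.1) to 24.9 CPM (19.5 to 28.5), without overlap.

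The direct test of what this control changed is the contrast of the vehicle groups, since FGF1 cancels from the difference of the comparisons. In that contrast edgeR called 0 of 14221 genes, with 193 at an unadjusted p under 0.05 (1.36%) and a smallest adjusted p of 0.787, and DESeq2 called 0, with 164. The fit of the 23 libraries of Day 5 and the fit with sample weights also called 0, with 879 and 1014 genes at an unadjusted p under 0.05. No single gene passed the thresholds between the controls in these fits, which does not show that the controls were alike. The comparison of FGF1 with non-diabetic-labelled vehicle, which shares the 9 FGF1 libraries, gave 219 DEGs (1.54%), 186 higher (1.31%) and 33 lower (0.232%), and 661 genes (4.65%) without the fold threshold.

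Counts and medians of the lists are set side by side here. Against diabetic-labelled vehicle 18 of 30 microglia genes rose with a median of 0.57, and against non-diabetic-labelled vehicle 3 rose with a median of 0.32. For the 25 interferon genes the counts were 4 and 0 with medians of 0.45 and 0.22, and for the 15 complement genes 6 and 5 with medians of 0.60 and 0.41. Both oligodendrocyte lists gave nearly equal counts, 10 and 9 for mature myelin with medians of 0.40 and 0.24, and 13 and 12 for precursors and newly formed cells. Reactive astrocyte genes gave 12 and 13, with medians of 0.67 and 0.64. Glucocorticoid targets fell in 5 and 2 cases, with medians of -0.33 and -0.23. Motile cilium genes rose in 6 and 2 cases with medians of 0.27 and 0.15, and meningeal fibroblast genes in 1 and 4 cases with medians of 0.46 and 0.67. The striatal list, which marks a neighboring region, had medians of -0.37 and -0.595 without a DEG in either. Against non-diabetic-labelled vehicle all 11 striatal genes were below 0 and 9 had an unadjusted p under 0.05, and the part of this in the other values was not tested. Drd1, a dopamine receptor of the striatum, was a DEG with the vehicle groups merged.

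A single library of the other control moved with the microglia, interferon and complement values. Non-diabetic-labelled vehicle replicate 2 had a summed microglia level of 774 CPM, where the other 6 of its group ran from 469.9 to 514 CPM, close to the 439.5 to 487 CPM of the diabetic-labelled group. Its interferon sum was 690 CPM against 236 to 274, its complement sum 1194 CPM against 855 to 911, and its MHC class I sum 1864 CPM against 1329 to 1411. Without that library, 12 microglia genes rose relative to non-diabetic-labelled vehicle with a median of 0.48, 2 interferon genes with a median of 0.49, and 7 complement genes with a median of 0.69. Its sum of glucocorticoid targets was 1055 CPM against 1304 to 1446 in the others of its group, and without it 4 of these targets fell relative to that control with a median of -0.26. Ctss against that control went from a log2 fold change of 0.32 (adjusted p = 0.154) to 0.60 (adjusted p = 2.55e-07), and B2m from 0.05 to 0.45 (adjusted p from 0.947 to 0.00239). The median of the interferon list in the contrast of the vehicle groups went from -0.37 to -0.02 and that of the microglia list from -0.17 to -0.05. The total of the non-diabetic-labelled comparison was 250 DEGs without it. With both vehicle groups merged 8 microglia genes were DEGs. Whether the condition of that mouse or its sample lies behind its values was not tested.

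Genes were also ranked, among the DEGs of this comparison, by the lowest p in the contrast of the vehicle groups, so these p-values are a description. Nckap5, a protein linked to microtubules, led with a p of 0.000186. Nckap5 ran from 15.7 to 19.8 CPM (median 18.3) with FGF1, from 10.2 to 14.5 CPM (median 10.8) in diabetic-labelled and from 13.8 to 16.7 CPM (median 14.6) in non-diabetic-labelled vehicle. Its order did not rest on replicate 2 of the non-diabetic-labelled group, without which the p was 0.00053. Bmf, a pro-apoptotic member of the BCL2 family, followed with 5.15 to 7.23 CPM (median 6.78), 3.66 to 5.31 (median 4.66) and 5.13 to 7.02 (median 5.91) in the same order of groups and a p of 0.00105. Aif1, Adgre1, Selplg, Ctss, B2m and Parp14, genes of microglia and of the interferon response, came after these with p-values from 0.00193 to 0.0113, next to Itgb7, Cry1, Rnase4, Bco2, Morn2, Ido2 and Dhx58. None passed in the adjusted test. Without replicate 2 of the non-diabetic-labelled group the unadjusted p was 0.34 for Ctss, 0.56 for B2m, 0.122 for Parp14, 0.0406 for Adgre1, 0.0333 for Aif1 and 0.0177 for Selplg. For Agrp, Npy and Itga7 the log2 differences between diabetic-labelled and non-diabetic-labelled vehicle were 0.43 (p = 0.193), 0.27 (p = 0.241) and 0.29 (p = 0.0388), all unadjusted p-values of edgeR.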

How the data were processed

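Gene counts of 47 hypothalamus libraries were used as deposited. Per the labels, RNA was prepared with a stranded TruSeq kit. The authors aligned reads with STAR and analyzed counts per gene with DESeq2. Their methods also mention quantile normalization, whereas the deposited counts were whole numbers with totals that differed between libraries, so they were treated as raw. The program that counted reads is not given in the sources used here. The labels write the build as GRCh38, read here as a slip for GRCm38, since the samples are from mice. The deposited table held 14221 genes, each with at least 307 counts over all libraries.

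The samples were grouped by label into 7 groups of treatment, day and label of diabetes. Counts were scaled by TMM and tested with edgeR 4.0.16 in R 4.3.3 by the quasi-likelihood test on 7 group means fitted to all 47 libraries. The low-count filter removed 0 genes. DEGs passed 0.05 in the Benjamini-Hochberg adjusted p and 0.5 in the size of the log2 fold change. Single genes were also tested by the two-sided exact permutation test of mean log2(CPM + 0.5) over 11440 splits, with 8.74e-05 as the smallest possible p. Alternatives used DESeq2 1.42.0 and limma 3.58.1, other scalings, filters and sets of libraries, thinning to 7579695 counts, and leaving out each library. Each mouse gave 1 library. The spread behind the edgeR p-values was estimated over all 47 libraries of Days 1, 5 and 42, which differ in preparation code, and not over Day 5 alone. The fits of 16 and of 23 libraries used Day 5 libraries alone. The exact permutation test used the 16 libraries of the comparison.

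The genes, the 42 gene lists and the tests were chosen with earlier results of these data known. Named were Agrp, Npy and Itga7, and the 12 largest higher and 12 largest lower DEGs whose groups did not overlap. For these DEGs at least 20 mean raw counts in a group were required. Also named, without such a floor, were the leading members of each list and DEGs with the lowest p between the vehicle groups. A few other list members are named to complete a list. By name, 14158 genes matched GENCODE M21. Columns of the authors' sample table served to check groups. Results for some genes are not reported here.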

Additional observations from a re-analysis of the deposited data

Results flagged for a closer look

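A library was singled out where its distance from the nearest other library of its group was large relative to the range of the group (Dixon's test). It was applied to 232 groups of values of 95 genes and 14 list sums, and 24 were singled out, where chance gives about 5%. Non-diabetic-labelled vehicle replicate 2 was the highest of its group in the summed level of homeostatic microglia (773.7 CPM), complement (1194 CPM), interferon response (690.1 CPM) and MHC class I presentation (1864 CPM), and the lowest for glucocorticoid targets (1055 CPM).

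Diabetic-labelled vehicle replicate 1 was the highest of its group in the summed level of mature myelin (9014 CPM) and in Enpp6 (17.08 CPM), Sirt2 (74.21 CPM), Adamts4 (21.96 CPM), Aqp4 (185.3 CPM), Vwf (28.77 CPM) and Adgre1 (5.693 CPM), and the lowest in Itih3 (431.5 CPM). In each of these values it lay nearer than the rest of its group to the FGF1 libraries.

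FGF1 replicate 4 was the lowest of its group for Itga7 (10.9 CPM) and for the summed level of sterol synthesis (1182 CPM), and the highest for Arrdc2 (25.14 CPM) and Tnr (317.6 CPM). FGF1 replicate 5 was the lowest for Selplg (22.8 CPM), and FGF1 replicate 6 the highest for B2m (102.7 CPM).

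Other diabetic-labelled vehicle libraries stood apart for 1 or 2 genes each. Replicate 4 was high in Parp14 (6.727 CPM), replicate 5 low in Cirbp (117.3 CPM) and Fbln5 (15.49 CPM), replicate 6 high in Pomc (14.43 CPM) and replicate 7 low in Arrdc2 (20.43 CPM). All of these values enter the tests.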

How the results depend on the processing

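The 406 DEGs of the main comparison were 398 with DESeq2, 372 with the vehicle groups merged, 358 after thinning, 560 in the fit of 16 libraries, 554 in the fit of 23 and 578 with sample weights. With at least 10 counts in every library, which left 10973 genes to test, 219 were called (195 higher, 24 lower), and 140 in the comparison with non-diabetic-labelled vehicle. Lower DEGs, 71 in the report, numbered 108 in the fit of 16 libraries, 142 after quantile normalization and 115 with sample weights. The comparison with non-diabetic-labelled vehicle, 219 DEGs in the report, had 370 in the fit of 23 libraries and 438 with weights. Without the fold threshold 1310 genes (824 higher, 486 lower) passed against diabetic-labelled and 661 against non-diabetic-labelled vehicle. Leaving out each library gave 348 to 414 DEGs (287 to 346 higher, 54 to 74 lower), 169 to 250 against non-diabetic-labelled vehicle, and 0 to 0 between the vehicle groups, where the alternatives gave 127 to 1014 genes at an unadjusted p under 0.05. Sterol synthesis had 0 to 3 lower DEGs over the alternatives. The causes were not tested.

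Of the 105 named genes called, 73 kept the call in every alternative and 32 lost it in at least 1, among them Dynlrb2 (lost in 21 alternatives), Dio2 (15), Igf2 (11), B2m (10), Insig1 (10), Mrc1 (7) and Cd14 (6). Csf1r, Ctss and Aif1 lost it with the vehicle groups merged (log2 fold change 0.49 each). Over 4720 values of named genes 0 changed sign against a call. Leaving out non-diabetic-labelled libraries and the alternatives for the second comparison were chosen after seeing the data. No paired analysis was possible because the replicate numbers only name libraries and the labels tie no library of a group to one of another. Mki67 and Bmp4 had few counts, and each kept its call in all 33 alternatives.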

Other observations

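Further lists of the comparison of FGF1 with diabetic-labelled vehicle are given here, where 2.85% of all genes were DEGs. Of 60 nuclear genes of the respiratory chain 0 were DEGs by edgeR, with 17 at an unadjusted p under 0.05 (21.8% of all genes) and a median log2 fold change of -0.08, and of 76 cytosolic ribosomal proteins 0 were, with 5 and a median of -0.06. Of 21 heat shock chaperones Chordc1 and Cryab rose (9.52%), and of 18 cell cycle genes in the table Mki67 and Cenpf rose (11.1%). Of 20 meningeal fibroblast genes in the table Igf2 rose, a call lost in 11 of 33 alternatives. That list had a median of 0.46, and 0 to 8 higher DEGs over the alternatives. Its summed level ran from 154 to 609 CPM with FGF1 and from 135 to 372 CPM in diabetic-labelled vehicle. The lists of ERK feedback genes and immediate early genes, with 21 members each, gave 0 DEGs by edgeR and 1 gene each at an unadjusted p under 0.05. These were Ccnd1, a cyclin, with a log2 fold change of 0.48 ± 0.08 (adjusted p = 6.56e-05), which became a DEG in 5 of 34 alternatives, and Jun, a transcription factor, with 0.43 ± 0.11 (adjusted p = 0.00891).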
